A study of Homo sapiens with 8 samples.

Results

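The 7 genes of the insulin-like growth factor (IGF) binding proteins, IGFBP1 to IGFBP7, and the 2 genes of the IGF receptors, IGF1R and IGF2R, were followed in HepG2 cells whose EZH1 and EZH2 activity was inhibited. These 9 genes were chosen by symbol from the 25603 genes of the RNA-seq table, with earlier results of these data known. HepG2 is an established human hepatocarcinoma cell line, so the data describe 1 tumor-derived line. The EZHi group received UNC1999 plus valemetostat tosylate for 4 days at 1 µM of either compound, the vehicle group received DMSO (0.2% per the labels) for the same time, and each group has 4 libraries. Both compounds were given together, so their separate contributions cannot be told apart. All cells, vehicle included, grew on gelatin in William E medium with 10% fetal bovine serum, 20 mU/ml of bovine insulin and 50 nM dexamethasone, which means that both groups were exposed to serum, to insulin and to a glucocorticoid.

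IGF1 and IGF2 are peptide hormones that act through IGF1R, a receptor tyrosine kinase closely related to the insulin receptor INSR. IGF2R, the cation-independent mannose 6-phosphate receptor, has no kinase domain, takes up IGF2 for degradation and sorts lysosomal enzymes. IGF binding proteins are secreted and hold IGFs in the circulation and around cells, where they can block or prolong their action, and the liver is a main source of several of them. EZH1 and EZH2 are the catalytic subunits of polycomb repressive complex 2 (PRC2), which places the repressive methyl mark on lysine 27 of histone H3. The comparison addresses whether mRNA levels of the binding proteins and receptors differ when this activity is inhibited. EZH1 and EZH2 mRNA differed by -0.065 and -0.055 between the groups on the log2 scale and were not called (limma adjusted p 0.573 and 0.806), and mRNA levels do not report on enzyme activity.

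Values are given on the length-corrected log2 scale of the authors, where 1 unit is a 2-fold difference, and a level is also given as an estimated FPKM (fragments per kilobase of transcript, scaled to library size). A gene was called when its adjusted p in limma, fitted across the 20153 genes that averaged 0.1 estimated FPKM or more, was under 0.05. Read depth per library is unknown, since the values were already normalized for it. Hepatocyte markers were checked first, and markers of other cell types are given further below. All 8 hepatocyte markers were in the table, and ALB and AFP were the highest of them. Their summed estimated FPKM was 22327 to 43312 in vehicle and 24494 to 39257 in EZHi. FGB alone among these markers was called. It was higher in EZHi, averaging 12.34 against 11.42 in vehicle, and limma gave it an adjusted p of 0.00167. Every EZHi library of FGB exceeded every vehicle library.

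To show the regulatory sequence in front of the genes described below, the 250 bases before the transcription start were taken from RefSeq (GRCh38.p14) for 7 of the 9 genes. The other two, IGFBP1 and IGFBP7, are named only. The windows of IGFBP2, IGFBP3 and IGFBP4 are printed because these 3 genes were called higher once the libraries were paired by replicate number, and the window of IGFBP5 because this gene lies next to IGFBP2 but stayed near the lower limit of the values. Each sequence reads 5′ to 3′ on the strand of its gene, and capitals mark CpG dinucleotides.
IGFBP2, chr2:216633170-216633419, plus strand: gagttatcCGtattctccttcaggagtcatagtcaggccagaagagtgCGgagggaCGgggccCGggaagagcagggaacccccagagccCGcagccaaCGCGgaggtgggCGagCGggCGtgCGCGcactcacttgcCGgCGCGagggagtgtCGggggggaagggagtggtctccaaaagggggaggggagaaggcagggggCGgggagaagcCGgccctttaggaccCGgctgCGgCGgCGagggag
IGFBP3, chr7:45921273-45921522, minus strand: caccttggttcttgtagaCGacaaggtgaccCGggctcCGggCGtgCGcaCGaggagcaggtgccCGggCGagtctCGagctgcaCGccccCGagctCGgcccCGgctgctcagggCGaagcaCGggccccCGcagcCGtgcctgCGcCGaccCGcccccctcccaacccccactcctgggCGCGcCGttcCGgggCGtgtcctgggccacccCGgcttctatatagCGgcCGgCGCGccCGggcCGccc
IGFBP4, chr17:40443200-40443449, plus strand: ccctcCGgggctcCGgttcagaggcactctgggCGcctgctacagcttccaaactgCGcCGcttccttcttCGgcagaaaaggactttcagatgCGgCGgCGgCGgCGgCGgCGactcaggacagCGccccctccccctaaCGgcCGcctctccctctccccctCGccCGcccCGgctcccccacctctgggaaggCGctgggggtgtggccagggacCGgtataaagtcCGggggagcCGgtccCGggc
IGFBP5, chr2:216695550-216695799, minus strand: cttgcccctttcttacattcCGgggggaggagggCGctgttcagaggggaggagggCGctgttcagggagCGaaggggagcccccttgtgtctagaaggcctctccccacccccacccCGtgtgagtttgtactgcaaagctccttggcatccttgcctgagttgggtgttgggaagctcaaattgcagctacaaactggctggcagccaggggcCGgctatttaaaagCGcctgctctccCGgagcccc

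The IGFBP3 window held 32 CpG dinucleotides, more than 90.5% of the 35114 RefSeq windows of this length, whose median was 11. The IGFBP4 window held 24 and the IGFBP2 window 22, more than 76.3% and 72% of all windows. RefSeq gives 3 starts for IGFBP2, and the window printed is the one at the start of the GENCODE canonical transcript, which lies within the gene span. The windows of the other two IGFBP2 starts held 7 and 4 CpG dinucleotides, more than 41.1% and 29.3% of all windows. The IGFBP5 window held 8, more than 43.7% of all windows. The windows of the receptors held 48 for IGF1R and 33 for IGF2R. Of the 4 motifs searched on both strands, TATAAA was found only in the window of IGFBP4 among the 4 printed, whereas 10.7% of all windows hold it. GGGCGG, held by 42.6% of all windows, was found in those of IGFBP2, IGFBP3 and IGFBP4. CCAAT and TGTTT, held by 32% and 40.4% of all windows, were in none of the 4, and these matches describe the letters of the window only.

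IGFBP1 was the most abundant of the 9 transcripts in vehicle cells by a wide margin. Its estimated FPKM was 1080 ± 413 (SD, n = 4), against 77.9 ± 6.84 (SD, n = 4) for IGF1R, 74.9 ± 4.64 (SD, n = 4) for IGF2R, 33.3 ± 5.66 (SD, n = 4) for IGFBP4 and 27.5 ± 5.92 (SD, n = 4) for IGFBP2. IGFBP3 followed at 15.4 ± 7.19 (SD, n = 4), IGFBP6 at 6.33 ± 1.82 (SD, n = 4), IGFBP7 at 1 ± 0.285 (SD, n = 4) and IGFBP5 at 0.0653 ± 0.00562 (SD, n = 4). On the log2 scale the vehicle libraries of IGF1R and IGF2R overlapped, as did those of IGFBP4 and IGFBP2, of IGFBP2 and IGFBP3, and of IGFBP3 and IGFBP6, so that these neighbors in the order are not separated by the spread of the libraries. IGFBP7 and IGFBP5 each lay apart from the gene above. The place of the receptors depends on the length used, since the mean length over their annotated transcripts is far shorter than that of the canonical one. With the length of the GENCODE canonical transcript, an alternative chosen after seeing the data, IGF1R moved from rank 2 to rank 5 at an estimated FPKM of 12.9, and IGF2R took rank 2 at 33.8.

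Treatment with EZHi was accompanied by higher mRNA of 3 of the 8 genes tested, IGFBP2, IGFBP4 and IGFBP7, and by no call in the lower direction. Of all genes tested, 8.85% were called higher and 4.27% lower. No member was lower at an unadjusted p under 0.05 either. The replicate numbers were taken to pair the libraries of both groups, although the labels do not say what a number marks. Deviations from the group means correlated at 0.216 to 0.634 within numbers and at 0.199 or less otherwise. With this number as a block 4 members were called higher, which adds IGFBP3, and 1 was called lower, IGFBP6, where 14.9% of all genes were called higher and 15.1% lower. In all 4 pairs EZHi exceeded vehicle for 6 of the 9 genes, the untested IGFBP5 included, and fell short of it for 1. The share of all genes with such pairs was not computed, so these counts are description only. The EZHi libraries lay wholly above the vehicle libraries for 3 genes, which held for 10.7% of all genes tested, and wholly below for 0, against 7.93% of all genes. Because RNA was taken from whole cultures, a higher level per cell and a larger share of expressing cells cannot be told apart.

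**Figure D1:**
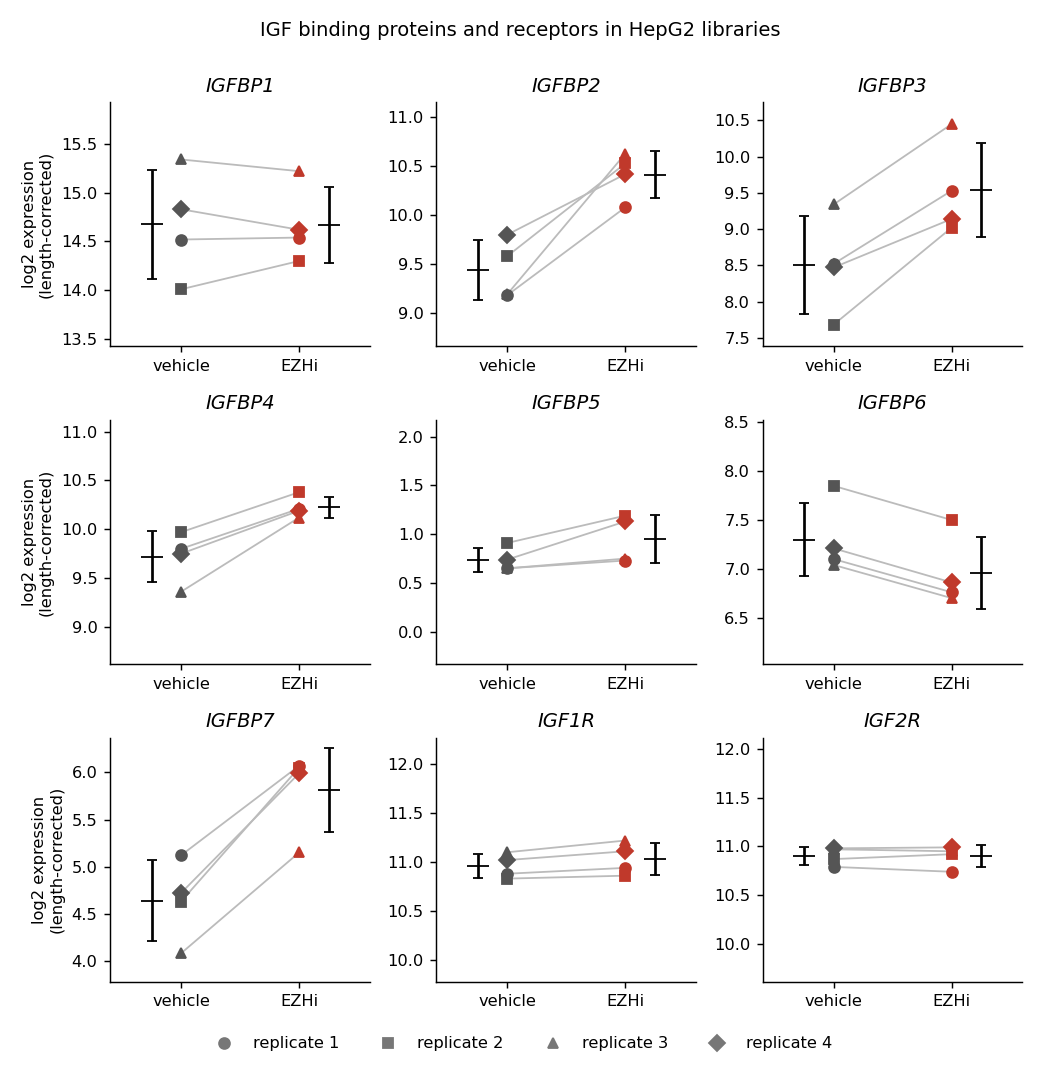
Length-corrected log2 expression (y axis, each panel at its own offset) of the 9 genes in 4 vehicle (grey) and 4 EZHi (red) HepG2 libraries; lines join libraries of the same replicate number, and bars give the mean ± SD of each group. IGFBP2, IGFBP4 and IGFBP7 show EZHi libraries wholly above vehicle, while the lines of IGFBP3 all go up and those of IGFBP6 all go down within overlapping groups.

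IGFBP2, which binds IGF2 with high affinity and is secreted in large amounts by fetal liver, nearly doubled. Its gene (ENSG00000115457) lies on chromosome 2, from 216632828 to 216664436 on the plus strand. Its log2 expression was 9.18, 9.58, 9.19 and 9.80 in vehicle replicates 1 to 4 and 10.08, 10.53, 10.63 and 10.42 in EZHi replicates 1 to 4. The lowest EZHi library thus exceeded the highest vehicle library, and the spread of the EZHi libraries was no wider than that of the vehicle ones. EZHi exceeded vehicle by 0.98 ± 0.16 (SE) on the log2 scale, or 1.97-fold (limma adjusted p 0.00326). This call was kept in all 8 fits that each left out one library, with adjusted p values of up to 0.0132.

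IGFBP4, which inhibits IGF action until it is cleaved by the protease PAPPA, was higher by a smaller margin. Its gene (ENSG00000141753) lies on chromosome 17, from 40443450 to 40457725 on the plus strand. In vehicle replicates 1 to 4 the log2 expression was 9.80, 9.97, 9.36 and 9.75, and in EZHi replicates 1 to 4 it was 10.21, 10.38, 10.12 and 10.19. The groups did not overlap, although vehicle replicate 2 came close to EZHi replicate 3. On average the difference was 0.51 ± 0.12 (SE) on the log2 scale (limma adjusted p 0.0221), and the differences within pairs ran from 0.41 to 0.77. The call was lost in 4 of the 8 fits without one library (vehicle replicate 4 and EZHi replicates 1, 2 and 4), where the adjusted p reached 0.0573.

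IGFBP7, a secreted protein with low affinity for IGFs that is made mainly by vascular and stromal cells, was higher in EZHi at a low level. Its gene (ENSG00000163453) lies on chromosome 4, from 57030773 to 57110385 on the minus strand. On the log2 scale it measured 5.12, 4.63, 4.08 and 4.72 in vehicle replicates 1 to 4 and 6.07, 6.05, 5.15 and 5.99 in EZHi replicates 1 to 4. Replicate 3 was the lowest in both groups, and in EZHi it barely exceeded the highest vehicle library. IGFBP7 rose by 1.17 ± 0.26 (SE) on the log2 scale, or 2.26-fold (limma adjusted p 0.0145), and its estimated FPKM went from 1 ± 0.285 to 2.27 ± 0.589 (SD, n = 4 each). Without EZHi replicate 4 the adjusted p was 0.0508, and with a pseudocount of 1 FPKM the difference was 0.695 (limma adjusted p 0.0164). The 3′ end of IGFBP7 overlaps that of POLR2B on the opposite strand, a gene expressed at 11.22 in vehicle and changed by -0.16 (adjusted p 0.0928), and counting without strand cannot separate their reads where they overlap.

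Markers of other cell types were examined beside IGFBP7. Of 4 endothelial markers, 3 were in the table and 2 were called higher, CDH5 by 2.28 and VWF by 1.45 on the log2 scale, whereas PECAM1 changed by 0.042. Their summed estimated FPKM ran from 2.26 to 2.72 in vehicle and from 3.42 to 7.21 in EZHi, and the part of this in the result was not tested. KDR is not analysed here. Of the fibroblast and stellate cell markers 3 of 6 were in the table and none was called, with sums of 32.8 to 42.1 in vehicle and 41.8 to 46.8 in EZHi. Cholangiocyte markers (4 of 5 in the table) and immune markers (3 of 5, 2 tested) also gave no call, but neither list was low. The cholangiocyte sum was 499 to 814 in vehicle and 616 to 855 in EZHi, with KRT19 the highest. For immune markers it was 1212 to 1686 and 1087 to 1557, with LYZ the highest.

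IGFBP3, the main carrier of IGFs in serum, was higher within every pair by 0.68 to 1.34 on the log2 scale but varied widely between pairs. Its gene (ENSG00000146674) lies on chromosome 7, from 45912245 to 45921874 on the minus strand. Its log2 expression was 8.52, 7.68, 9.34 and 8.47 in vehicle replicates 1 to 4 and 9.53, 9.02, 10.45 and 9.14 in EZHi replicates 1 to 4. Replicate 3 was the highest and replicate 2 the lowest in both groups, so that the groups overlapped even though each pair differed in the same direction. Without regard to the pairs, a difference of 1.03 ± 0.37 (SE) on the log2 scale was not called (limma adjusted p 0.106). With the replicate block the SE was 0.093 and the limma adjusted p 7.46e-05. Without vehicle replicate 3 the gene was also called without the block (log2 fold change 1.31, adjusted p 0.0361).

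IGFBP6, which prefers IGF2 over IGF1, was the only binding protein lower in every pair. Its gene (ENSG00000167779) lies on chromosome 12, from 53097436 to 53102345 on the plus strand. On the log2 scale IGFBP6 measured 7.10, 7.85, 7.04 and 7.21 in vehicle replicates 1 to 4 and 6.76, 7.50, 6.70 and 6.86 in EZHi replicates 1 to 4. The groups overlapped because replicate 2 stood high in both, while the differences within pairs all lay between -0.35 and -0.34. This difference of -0.34 ± 0.22 (SE) was not called (limma adjusted p 0.365). Once the replicate block was included, the SE was 0.066 and the limma adjusted p 0.00467.

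IGFBP1, a hepatic binding protein whose transcription is repressed by insulin and raised by glucocorticoids, showed no consistent direction. Its gene (ENSG00000146678) lies on chromosome 7, from 45888360 to 45893660 on the plus strand, and ends 18.6 kb from the end of IGFBP3. Log2 expression reached 14.52, 14.01, 15.34 and 14.83 in vehicle replicates 1 to 4 and 14.54, 14.30, 15.22 and 14.62 in EZHi replicates 1 to 4. The EZHi libraries lay within the range of the vehicle libraries, and 2 pairs were higher and 2 lower. Vehicle and EZHi means differed by -0.005 ± 0.28 (SE), with a 95% interval of -0.62 to 0.61 (limma adjusted p 0.995). With the replicate block the interval narrowed to -0.18 to 0.17, which does not reach the differences measured for IGFBP2 or IGFBP3.

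IGFBP5, which is better known from bone, muscle and connective tissue, was close to the lower limit of the values and was not tested. Its gene (ENSG00000115461) lies on chromosome 2, from 216672105 to 216695549 on the minus strand, 7.67 kb from the end of IGFBP2. Its log2 expression was 0.65, 0.91, 0.65 and 0.74 in vehicle replicates 1 to 4 and 0.73, 1.19, 0.75 and 1.13 in EZHi replicates 1 to 4. These levels stand for about 4.18 normalized reads per vehicle library and 4.88 per EZHi library, and the groups overlapped. In a fit without the filter on low values the difference was 0.21 ± 0.12 (SE; limma adjusted p 0.319).

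The receptors differed little between the groups. IGF1R (ENSG00000140443, chromosome 15, 98648539 to 98964530, plus strand) measured 10.88, 10.83, 11.10 and 11.02 in vehicle replicates 1 to 4 and 10.94, 10.86, 11.22 and 11.11 in EZHi replicates 1 to 4. The groups overlapped almost entirely, although each EZHi library was slightly above its pair. The log2 fold change was 0.076 with a 95% interval of -0.14 to 0.29 (limma adjusted p 0.677), and the adjusted p with the replicate block was 0.206. IGF2R (ENSG00000197081, chromosome 6, 159969082 to 160113507, plus strand) measured 10.79, 10.87, 10.97 and 10.98 in vehicle replicates 1 to 4 and 10.74, 10.92, 10.95 and 10.99 in EZHi replicates 1 to 4. Its pairs differed in both directions, and the log2 fold change of -0.0028 had a 95% interval of -0.17 to 0.16 (limma adjusted p 0.989).

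**Figure D2:**
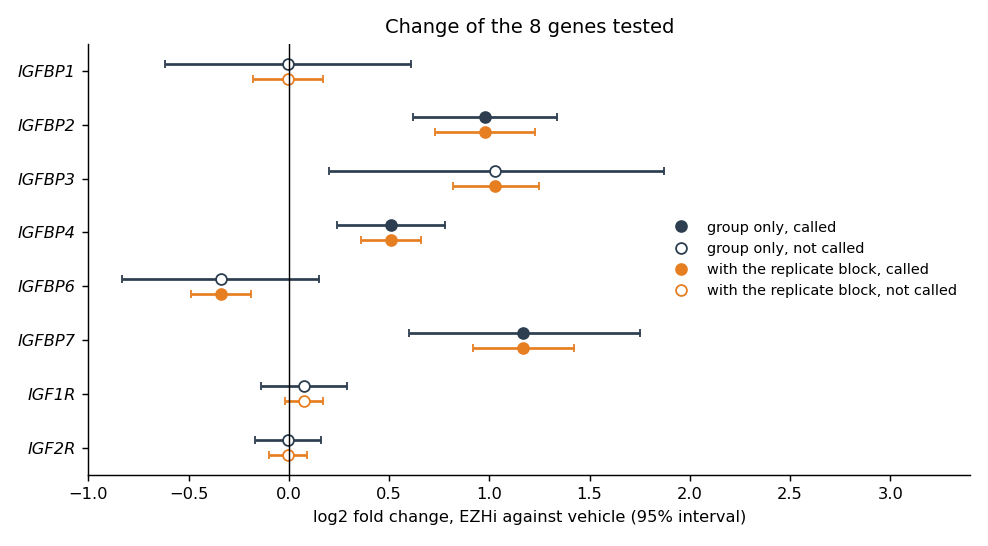
Log2 fold change of EZHi against vehicle (x axis) with its 95% interval for the 8 genes tested, from limma with group as the only term (dark) and with the replicate number as a block (orange); filled points have an adjusted p under 0.05. The block leaves each estimate in place and narrows the interval, which moves IGFBP3 and IGFBP6 past the threshold.

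Each gene was then compared for the order of its libraries in the 2 groups. For 9 of the 9 genes the same replicate number was the lowest in both groups, which held for 43.6% of all genes tested, and for 8 the same number was the highest (43.5% of all genes), the exception being IGFBP2. The order of all 4 numbers was identical in vehicle and EZHi for 7 genes, against 14.4% of all genes. Each of these counts includes IGFBP5, which was not tested and lay close to the lower limit of the values. IGFBP1, IGFBP3 and IGF1R were highest in replicate 3 of both groups, whereas IGFBP4, IGFBP6 and IGFBP7 were lowest there. In replicate 3 of both groups some members thus stood high and others low.

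Levels of the binding proteins were then added up to describe the mixture of transcripts. In vehicle the 7 genes summed to 1164 ± 411 estimated FPKM (SD, n = 4), in EZHi to 1189 ± 324 (SD, n = 4), and the sum followed IGFBP1. IGFBP1 made up 92.1, 88.1, 95.3 and 92.8% of this sum in vehicle replicates 1 to 4 and 88.2, 84.9, 90 and 88.5% in EZHi replicates 1 to 4. This share was lower in EZHi within every pair, with overlap between the groups. Without IGFBP1 the sum was 78.5, 87.2, 79.5 and 89.1 in vehicle replicates 1 to 4 and 124, 140, 166 and 128 in EZHi replicates 1 to 4. All EZHi libraries exceeded all vehicle libraries in this smaller sum, to which IGFBP2, IGFBP3 and IGFBP4 contributed most. Among these 6 genes IGFBP6 made up 7.53 ± 1.88% (SD, n = 4) of the vehicle sum and 3.61 ± 1.08% (SD, n = 4) of the EZHi sum. These sums describe mRNA, not secreted protein, and were not tested.

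**Figure D3:**
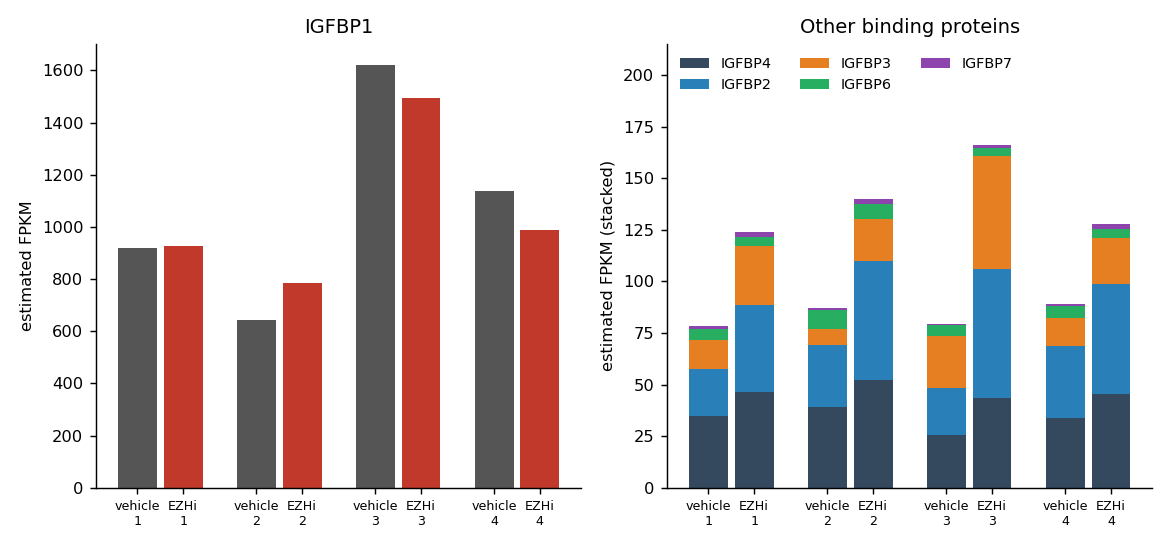
Estimated FPKM (y axis) of IGFBP1 (left; vehicle grey, EZHi red) and of the other binding proteins stacked (right) in each of the 8 libraries, ordered by replicate number. IGFBP1 follows the replicate number, whereas the stacks rise from 78.5 to 89.1 in vehicle to 124 to 166 in EZHi; IGFBP5 is too low to be drawn.

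A pair of ratios within a library, which do not depend on the scaling between libraries, was examined next. Both were chosen with earlier results of these data known. IGF1R and INSR form hybrid receptors, and the log2 ratio of IGF1R to INSR was 1.02, 0.96, 0.85 and 0.98 in vehicle replicates 1 to 4 and 1.24, 1.14, 1.12 and 1.31 in EZHi replicates 1 to 4. All EZHi libraries were higher, with a difference of 0.25 (exact two-sided permutation test, p 0.0286, also 0.0286 after adjustment over the 2 ratios), and the difference within pairs ran from 0.18 to 0.33. Neither gene was called on its own, INSR having changed by -0.17 (limma adjusted p 0.39, or 0.0171 with the replicate block). The level of either ratio depends on the transcript length used, whereas its difference between the groups does not. With canonical transcript lengths the vehicle estimated FPKM was 12.9 for IGF1R and 14.4 for INSR. The log2 ratio of IGFBP1 to IGFBP3, which lie tail to tail, was 6.0, 6.32, 6.0 and 6.37 in vehicle replicates 1 to 4 and 5.01, 5.28, 4.77 and 5.48 in EZHi replicates 1 to 4. It was lower in all EZHi libraries by -1.04 (exact permutation p 0.0286, adjusted 0.0286). A p of 0.0286 is the smallest that 70 assignments of the 8 libraries can give. When the pairs were kept, the exact sign-flip test gave p 0.125 for both ratios, the smallest that 4 pairs allow, so that neither ratio passed the threshold in the paired test.

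**Figure D4:**
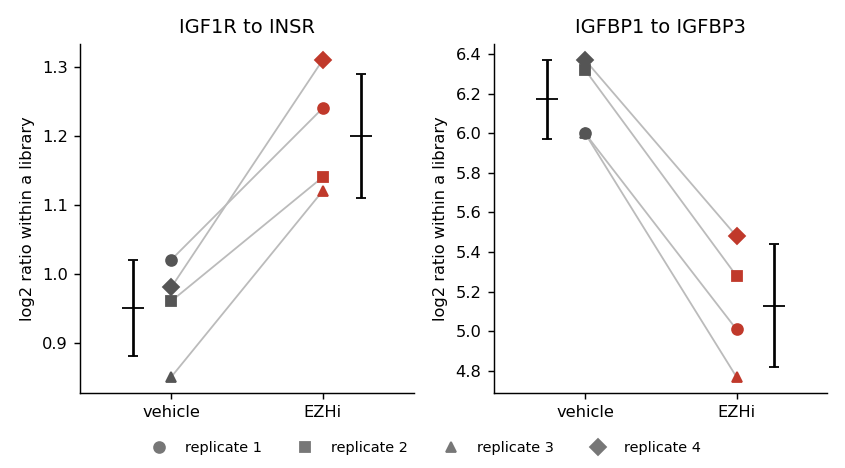
Log2 ratio within each library (y axis, not starting at 0) of IGF1R to INSR (left) and of IGFBP1 to IGFBP3 (right) in vehicle (grey) and EZHi (red); lines join equal replicate numbers and bars give the mean ± SD. The vehicle and EZHi libraries do not overlap in either ratio.

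The ligands and the other genes of the pathway give the setting of these members. Of the ligands, IGF2 was measured, while IGF1 and INS are not analysed here. IGF2, the fetal IGF, had a log2 expression of 12.15, 11.39, 13.55 and 12.73 in vehicle replicates 1 to 4 and 13.41, 13.27, 14.56 and 13.91 in EZHi replicates 1 to 4. It was higher in every pair by 1.01 to 1.88, but the groups overlapped, and the log2 fold change of 1.33 was not called (limma adjusted p 0.0741), whereas it was with the replicate block (7.25e-05). IGF2-AS, which overlaps IGF2 on the opposite strand, was called higher by 1.75 (limma adjusted p 1.15e-05), and reads of this pair cannot be told apart without strand.

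Of 99 distinct genes in the pathway lists, 93 were in the table and 85 were tested, of which 10 were called higher and 4 lower. Their median log2 fold change was -0.025, against -0.0077 over all genes tested. Without the replicate block the lower calls depended on the scaling, with 12 higher and 0 lower when libraries were centred on genes of at least 10 FPKM and 12 higher and 1 lower with quantile normalization. Over all genes the calls moved in the same way with centring, from 1784 higher and 860 lower to 2304 and 398, and with quantile normalization they were 1402 and 784. With the replicate block 23 of the pathway genes were called higher and 21 lower, beside 14.9% and 15.1% of all genes. Under the block, lower calls numbered 13 with centring and 15 with quantile normalization. These combinations were chosen after seeing the data, and no share of all genes is given for them.

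Calls were also made among proteins related to the binding proteins and in the machinery that cleaves them. Of 7 related genes tested, 3 were called higher and 0 lower, among them HTRA1, a secreted protease with a domain like that of IGF binding proteins, by 1.85 (limma adjusted p 0.0002), and IGFBPL1 by 1.13 (0.00156). The third, CCN6, rose by 0.51 (0.00488) at a low level, with an estimated FPKM of 0.148 in vehicle and 0.213 in EZHi. These levels stand for about 3.94 and 5.64 normalized reads per library. With the replicate block 3 of these related genes were called higher and 2 lower, beside 14.9% and 15.1% of all genes. The lower ones were CCN1 at -0.70 and CCN2 at -0.49 (limma adjusted p 0.00213 and 0.0109 with the block). Of 5 genes tested for the ternary complex and for proteolysis, 2 were called higher and 1 lower. PAPPA, the metalloprotease that cleaves IGFBP4, rose by 1.08 (limma adjusted p 0.00182), and STC1, an inhibitor of PAPPA, by 1.5 (0.00049), both at low levels, with an estimated FPKM of 0.236 ± 0.0562 and 0.17 ± 0.0489 (SD, n = 4 each) in EZHi. In vehicle they averaged 0.11 and 0.0582. STC1 thus lay under the minimum of 0.1 in vehicle and entered the fit only through its EZHi libraries, so its call is description only. Because these levels are so low, a pseudocount of 0.5 FPKM reduced the differences to 0.269 for PAPPA, 0.261 for STC1 and 0.333 for IGFBPL1, with all 3 still called. STC2, the related and abundant inhibitor, was lower by -0.47 (limma adjusted p 0.027), a call that was lost with quantile normalization (0.074) and with centring (0.0552), and that among the fits without one library held only without vehicle replicate 1 or 2 or EZHi replicate 3. With the replicate block STC2 was called (limma adjusted p 0.000735). It was also called when the block was combined with either scaling, a choice made after seeing the data. IGFALS, the acid-labile subunit that joins IGFBP3 in serum, changed by -0.12 and was not called (limma adjusted p 0.731).

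Without the replicate block, signaling genes downstream of the receptors showed few calls. Among 10 substrates and adaptors tested, DOK1 rose by 0.74 (limma adjusted p 0.00148) and GRB14, an adaptor that inhibits the insulin receptor, by 0.68 (0.00411), and CRKL was lower by -0.35 (0.0481). Of 25 genes tested in the PI3K, AKT and mTOR arm, 1 was called higher, PIK3R1, a regulatory subunit of PI3K, by 0.31 (limma adjusted p 0.0408), and 1 lower, PHLPP1, a phosphatase of AKT, by -0.23 (0.0365). The calls of CRKL and PHLPP1 were lost with quantile normalization (0.139 and 0.203) and with centring (0.115 and 0.155). Among the fits without one library, PIK3R1 was called only without vehicle replicate 3 or EZHi replicate 2 (adjusted p of up to 0.113 in the others), CRKL only without vehicle replicate 2 or EZHi replicate 3, and PHLPP1 only without vehicle replicate 1 or 3. In the growth hormone axis STAT5A was the only call among 7 genes, higher by 0.71 (limma adjusted p 0.0115). None of the 13 genes tested for mannose 6-phosphate sorting, the route that IGF2R serves, was called, and their median log2 fold change was 0.034. Among 3 IGF mRNA binding proteins IGF2BP3 was called lower by -0.30 (limma adjusted p 0.0232), which was lost with quantile normalization (0.126) and centring (0.0755). When the replicate block was combined with these scalings, CRKL and IGF2BP3 were called under both and PHLPP1 with centring only. These combinations were chosen after seeing the data.

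Other genes that respond to insulin and glucocorticoids in liver were set beside IGFBP1. Of 6 FOXO targets tested that insulin represses, PDK4, a kinase that restrains pyruvate dehydrogenase, was called higher by 0.96 (limma adjusted p 0.000493), or by 0.318 with a pseudocount of 0.5 FPKM (0.00112), and the list median was 0.57. The gluconeogenic genes PCK1 and G6PC1 differed by 1.08 and 0.74 and were not called (limma adjusted p 0.201 and 0.548). With the replicate block, 5 of the 6 were called higher and 1 lower, beside 14.9% and 15.1% of all genes, while IGFBP1 was not called. None of the 7 glucocorticoid-responsive genes tested was called, and with the block 2 were higher and 3 lower.

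**Figure D5:**
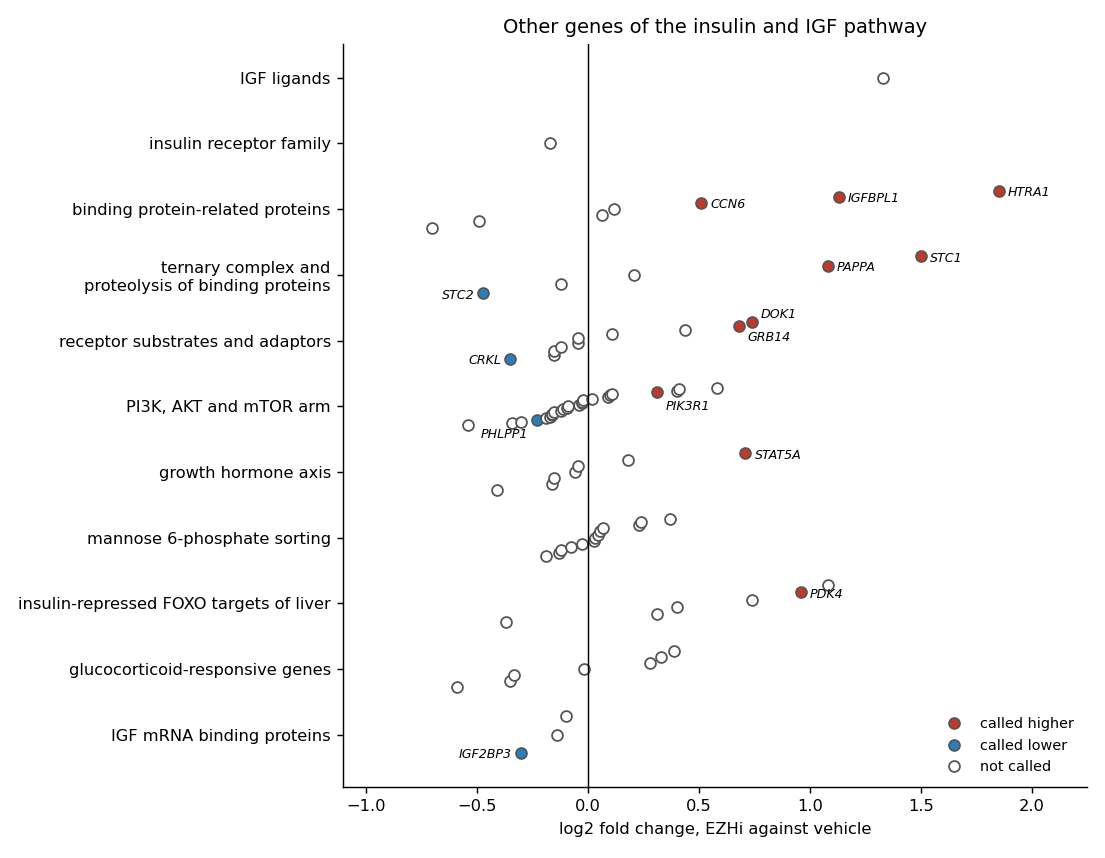
Log2 fold change of EZHi against vehicle (x axis) for the 85 tested genes of the pathway lists, 1 point per gene and 1 row per list; points are spread vertically for legibility. Called genes are filled and named, with 10 higher (red), among them HTRA1 at 1.85, and 4 lower (blue).

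The genes around the members were looked at to place these differences on the chromosome. The 2 nearest protein-coding genes on either side of each member comprised, with the members themselves left out, 28 distinct genes, of which 20 were tested, 3 called higher and 1 lower, beside 8.85% and 4.27% of all genes. ADCY1, which lies 165 kb from IGFBP1, was called higher by 1.93 (limma adjusted p 2.02e-05), and beside IGF1R ARRDC4 and PGPEP1L were higher by 0.65 and 1.00 (0.0136 and 9.31e-05). PGPEP1L stood low, at a mean log2 expression of 1.63 in vehicle and 2.63 in EZHi. TNS2, which lies 33.1 kb from IGFBP6, was lower by -0.36 (limma adjusted p 0.0105). The neighbors of IGFBP4, TOP2A and TNS4 included, gave no call, and neither did RPL37A and SMARCAL1 beside IGFBP2 or REST and NOA1 beside IGFBP7.

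The genes whose values ran most like those of the called members over the 8 libraries were also listed. For IGFBP2 these were PDE11A, GBP1 and TUBB2B (Pearson r 0.990, 0.988 and 0.983, n = 8), for IGFBP4 GRIN1, KIF21B and DLL3 (0.995, 0.995 and 0.992), and for IGFBP7 MCC, PPIF and KAT14 (0.989, 0.987 and 0.986). All 9 were themselves called higher in EZHi. The correlations span both groups and share their libraries, so the difference between the groups enters each of them. Over 0.95 there were 46 genes for IGFBP2, 117 for IGFBP4 and 41 for IGFBP7.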

How the data were processed

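RNA-seq was available for 4 vehicle and 4 EZHi libraries (paired reads of 150 bp), grouped by sample title. By the study's methods, reads were aligned by the authors to hg38 with HISAT2, and the authors counted exonic reads without strand with HTSeq, applied the regularized log of DESeq2 and corrected for mean transcript length. The submitters' processing notes give HISAT2 2.2.1, HTSeq 0.9.1 and DESeq2 1.40.2, and the methods name other versions of HISAT2 and DESeq2. The deposited values are therefore log2 values, although the table is named as FPKM. The regularized log shrinks differences of genes with few reads. Estimated FPKM is 2 to the power of the value, divided by 25.6, the mean over libraries of the summed normalized reads in units of 1e6 (24.36 to 27.31 per library). Read depth is unknown, and no counting interval can be given.

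Of 25603 genes, the 20153 that averaged 0.1 estimated FPKM or more entered a limma 3.58.1 fit in R 4.3.3, two-sided, with group alone in the model, a trended prior and Benjamini-Hochberg adjustment across them, a call being an adjusted p under 0.05. The script was tested on simulated data. IGFBP5 did not pass the filter. The ratios were tested by exact permutation. The study describes the 4 replicates of each group as biologically independent. Deviations from the group means correlated between libraries of the same replicate number at 0.310, 0.558, 0.634 and 0.216, and for other combinations from -0.582 to 0.199. The numbers were therefore taken to pair the libraries, although the labels do not say what a number marks. For the members, IGF2 and INSR the block result is given where it changes a call, and for other genes it is given only in part. Alternatives were the replicate block, leaving out each library, other filters (1 FPKM or none), pseudocounts of 0.1, 0.5 and 1, quantile, median-of-ratios and centred scaling, and a constant prior. Coordinates came from GENCODE release 44.

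The members, gene lists, ratios and tests were chosen with earlier results of these data known. Named are all members, IGF2 and INSR, up to 2 genes called in each direction per pathway list, the nearest neighbors and the 3 genes most correlated with each called member. CCN1, CCN2, CCN6, FGB, IGFALS, PCK1, G6PC1, IGF2-AS and POLR2B fall outside this rule and were named after their values were seen.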

Additional observations from a re-analysis of the deposited data

Results flagged for a closer look

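In 52 groups of 4 libraries examined for a library lying apart from the rest (Dixon's test, 95% level), 1 was found, whereas chance gives about 2.6. It was IGFBP7 in EZHi, where replicate 3 had a log2 expression of 5.15 and the other libraries 5.99 to 6.07, so that the gap took up 0.917 of the range. Vehicle replicate 3 was also the lowest of its group for this gene, at 4.08. Without EZHi replicate 3 the log2 fold change of IGFBP7 was 1.40.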

How the results depend on the processing

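IGFBP2, IGFBP4 and IGFBP7 were called higher under every filter, pseudocount, scaling and prior tried and with the replicate block. Leaving out one library gave 1 to 4 members called higher, with 1 without EZHi replicate 4, and 0 called lower. For pathway genes it gave 9 to 12 higher and 0 to 6 lower (0 without EZHi replicate 4, 1 without vehicle replicate 4, EZHi replicate 1 or EZHi replicate 2, and 2 without vehicle replicate 1). Over all genes, 2644 calls became 1811 to 2571 without one library, 6051 with the replicate block and 1579 at a minimum of 1 FPKM, where fewer genes were tested. With the replicate block, 1 member was called lower, and 23 pathway genes were called higher and 21 lower. The following combinations were chosen after seeing the data. The block with centring gave 5 members higher and 1 lower and 28 and 13 pathway genes, the block with quantile normalization 5 and 1, and 26 and 15, and the block with no filter 1 member lower and 21 and 16 pathway genes. The fifth member was IGF1R, with a log2 fold change of 0.152 with centring and 0.191 with quantile normalization (limma adjusted p 0.0237 and 0.00921). A minimum of 1 FPKM gave 5 pathway genes higher. Lower pathway genes numbered 1 with quantile normalization, 0 with centring and 2 with a constant prior. Centring subtracts a single constant per library, so it moves the log2 fold change of every gene by the same amount. What else moved the calls was not tested. Median log2 fold changes over all genes were -0.0077 as deposited, -0.0592 with quantile normalization and 0.0677 with centring. The log2 ratios of IGF1R to INSR and of IGFBP1 to IGFBP3 differed by 0.250 and -1.039 between paired libraries, and the exact sign-flip p of 0.125 is the smallest that 4 pairs allow. Read depth is unknown, and IGFBP5, under the minimum level, entered only the fits with no filter.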
